A study of Mus musculus with 8 samples.

Results

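The cytochrome P450 genes of families 2 and 3 were followed across 8 mouse liver RNA-seq libraries. Members were all genes of the deposited table whose symbol is Cyp2 followed by a letter or Cyp3a followed by a number, with 12 pseudogene symbols left out. This gave 58 genes, 49 of them Cyp2 and 9 Cyp3a, among 48432 genes listed. None of the 58 carried a failed estimate in any library. The libraries came from livers of wild-type C57BL/6 mice, 2 for each of 4 groups. LD-FA stands for a light/dark cycle with filtered air and LD-PM2.5 for the same cycle with PM2.5, fine airborne particles. LL-FA stands for constant light with filtered air and LL-PM2.5 for constant light with PM2.5. All groups share the strain, the genotype, the tissue and 30 weeks of exposure. The labels used here state no age, sex, hour of collection or particle dose. Nothing in the labels says that the 2 libraries of a group came from separate mice, so the p-values refer to the spread between these samples, which may be technical.

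Cytochrome P450 enzymes are heme proteins of the endoplasmic reticulum that insert an oxygen atom into their substrates with electrons from the reductase Por. Families 2 and 3 hold the main drug- and pollutant-metabolising enzymes of the liver, and many members also oxidise steroids, fatty acids or vitamin D. The nuclear receptors CAR (Nr1i3) and PXR (Nr1i2) raise the transcription of Cyp2b10, Cyp3a11 and several Cyp2c genes when foreign compounds enter the hepatocyte. The factors HNF4A and C/EBP keep basal transcription high. Growth hormone pulses give some members a male or female bias, and Wnt signals place several around the central vein. In mice the genes lie in dense clusters of near-identical copies.

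Because copies of nearly the same sequence differed widely in level, the bases upstream of such copies were compared. Promoter windows from 250 bases before to 50 bases after the transcript start were taken from RefSeq on GRCm38.p6, where 50 of the 58 members had an entry. The HNF4A motif CAAAGTCCA, searched on both strands, was in 10 of the 50 members (20%) and in 156 of all 32851 promoter windows (0.475%). These 10 genes are copies within the Cyp2c and Cyp3a clusters, so the matches are not independent of each other. The 41 bases around each match follow, 5′ to 3′ on the gene's strand, with the motif in capitals and the genes in order of mean level.
Cyp3a11 (chr5:145879939-145879979, minus strand): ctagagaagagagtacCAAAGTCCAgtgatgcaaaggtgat
Cyp2c70 (chr19:40187326-40187366, minus strand): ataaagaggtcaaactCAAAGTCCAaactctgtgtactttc
Cyp2c67 (chr19:39649143-39649183, minus strand): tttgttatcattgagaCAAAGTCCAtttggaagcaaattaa
Cyp2c68 (chr19:39741154-39741194, minus strand): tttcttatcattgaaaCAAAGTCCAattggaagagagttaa
Cyp2c40 (chr19:39812835-39812875, minus strand): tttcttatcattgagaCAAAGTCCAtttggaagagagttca
Cyp2c69 (chr19:39886820-39886860, minus strand): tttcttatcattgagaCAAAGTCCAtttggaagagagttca
Cyp3a16 (chr5:145469798-145469838, minus strand): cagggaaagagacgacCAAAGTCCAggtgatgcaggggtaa
Cyp3a41a (chr5:145720207-145720247, minus strand): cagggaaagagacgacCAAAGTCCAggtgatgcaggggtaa
Cyp2c65 (chr19:39060874-39060914, plus strand): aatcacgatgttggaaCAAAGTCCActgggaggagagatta
Cyp3a41b (chr5:145584801-145584841, minus strand): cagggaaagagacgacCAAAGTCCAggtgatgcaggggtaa
Cyp3a16, Cyp3a41a and Cyp3a41b share the printed stretch base for base, and so do Cyp2c40 and Cyp2c69. Mean levels of the 10 genes ran from 2390 FPKM (Cyp3a11, motif start at -109) over 349 (Cyp2c70, -64), 141 (Cyp2c67, -125) and 77.6 FPKM (Cyp2c68, -77) to 1.65 (Cyp2c40, -45) and 0.83 FPKM (Cyp2c69, -75), and the remaining 4 were below 0.06 FPKM. Positions refer to RefSeq transcript starts, while gene spans given below are from GENCODE. The GENCODE span of Cyp3a11 (chr5:145854426-145879964) begins further upstream and takes in its motif.

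Among the pairs whose 250 upstream bases were aligned, Cyp2a5 and Cyp2a4 were the most alike. Over these bases Cyp3a11 was 76.2% identical to Cyp3a16 and 71.7% to both Cyp3a41a and Cyp3a44. Cyp2c67 was 63.1% identical to Cyp2c68, 62.0% to Cyp2c69 and 47.9% to Cyp2c40, and Cyp2c70 was 44.6% identical to Cyp2c68. Cyp2a5 and Cyp2a4 were 98.4% identical over their coding sequences and 97.6% identical over the 250 bases upstream. The last 100 bases before their RefSeq transcript starts are given with the C/EBP motif TTGCNNAA in capitals. The GENCODE spans of both genes begin within these bases.
Cyp2a5 (chr7:26835239-26835338, plus strand): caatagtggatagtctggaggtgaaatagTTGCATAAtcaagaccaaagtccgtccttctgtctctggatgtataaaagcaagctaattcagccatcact
Cyp2a4 (chr7:26307092-26307191, plus strand): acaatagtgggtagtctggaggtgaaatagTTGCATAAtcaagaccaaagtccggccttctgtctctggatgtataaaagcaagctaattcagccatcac
Cyp2a5, which hydroxylates coumarin and nicotine, averaged 283 FPKM over the 8 libraries. Cyp2a4, a testosterone hydroxylase known for higher levels in females, averaged 0.15 FPKM. FPKM is the number of fragments per kilobase of transcript, scaled to the mapped fragments of the library, and levels of different genes are compared here only on this scale. The C/EBP motif was in 14 of 50 members (28.0%) and in 10.8% of all windows. The D-box TTANGTAA, bound by Dbp, Tef and Hlf, was in Cyp2c38 alone (2.32% of all windows), and the E-box CACGTG in Cyp2j6 alone (7.15% of all windows). A match is a description of letters, not of binding.

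**Figure D1:**
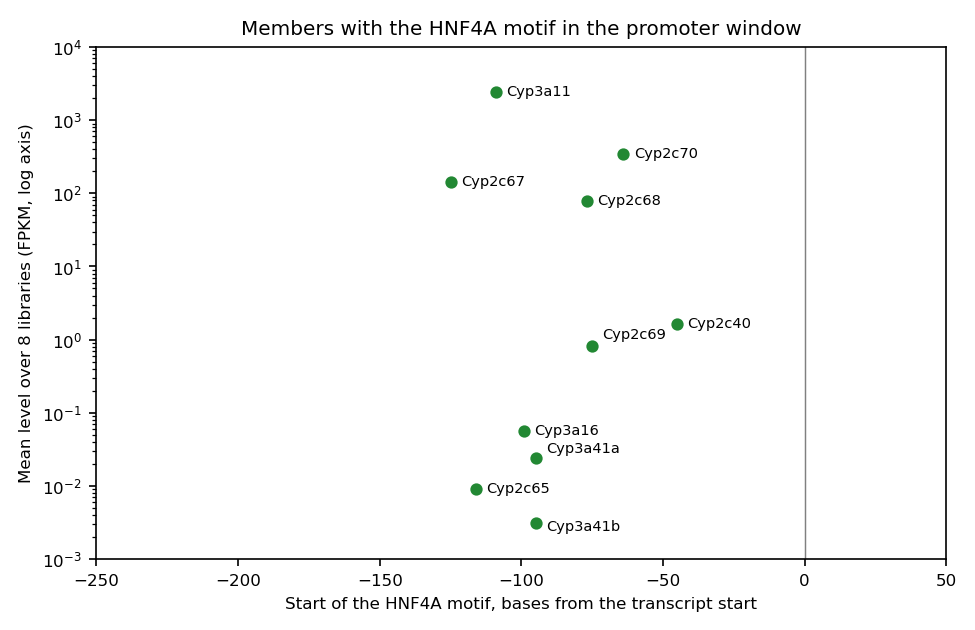
Position of the HNF4A motif (x axis, bases from the RefSeq transcript start) against mean FPKM over 8 libraries (y axis, log scale) for the 10 members that hold it. Cyp3a11, at 2390 FPKM, holds it at -109 and Cyp3a41b, at 0.0031 FPKM, at -95.

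The members made up 2.81% to 3.74% of the fragments that a library had in genes with an accepted estimate (status OK). All listed genes together held 22214720 to 31819109 fragments. Of the 58 genes, 32 reached at least 1 FPKM in at least 2 libraries and were tested, among 11316 genes tested in all. The other 26 were below that level, and 7 of them had no fragment in any library. The levels of the 32 genes are described first, by role, and the comparisons follow. Mean levels reached 100 FPKM in 17 members and 10 FPKM in 26. The 5 highest members held 65.1% to 70.7% of the summed FPKM of all 58.

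Cyp2e1 on chromosome 7 (chr7:140763739-140774987, plus strand), which oxidises ethanol and small solvents, was the most abundant. It stood at 3738 and 3160 FPKM (LD-FA), 4242 and 3902 FPKM (LD-PM2.5), 4088 and 3336 FPKM (LL-FA), and 4577 and 2099 FPKM (LL-PM2.5). LL-PM2.5 replicate 2 was the lowest library and LL-PM2.5 replicate 1 the highest. Cyp3a11 (chr5:145854426-145879964, minus strand), the main Cyp3a enzyme of mouse liver and a PXR target, stood at 2852 and 1455 FPKM (LD-FA), 2357 and 2236 FPKM (LD-PM2.5), 3422 and 1807 FPKM (LL-FA), and 2903 and 2086 FPKM (LL-PM2.5). In each group replicate 1 was above replicate 2, and all 4 groups overlapped.

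Cyp2d9, Cyp2f2 and Cyp2c29 came next in mean level. Cyp2d9 (chr15:82433437-82456845, plus strand), a testosterone 16-alpha-hydroxylase of male liver, gave 1057 and 897 FPKM (LD-FA), 830.2 and 1216 FPKM (LD-PM2.5), 1057 and 1188 FPKM (LL-FA), and 789.7 and 436 FPKM (LL-PM2.5). Both LL-PM2.5 libraries lay below the other 6. Cyp2f2, which activates naphthalene and is a periportal gene in liver, gave 989 and 927 FPKM (LD-FA), 839 and 993 FPKM (LD-PM2.5), 781 and 969 FPKM (LL-FA), and 815 and 717 FPKM (LL-PM2.5). Its libraries spanned 717 to 993 FPKM, with both LL-PM2.5 libraries below both LD-PM2.5 libraries. Cyp2c29, inducible through CAR and PXR, gave 773 and 730.1 FPKM (LD-FA), 872 and 736 FPKM (LD-PM2.5), 1092 and 769 FPKM (LL-FA), and 1153 and 582 FPKM (LL-PM2.5). The highest and the lowest values both came from LL-PM2.5.

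Other Cyp2c enzymes oxidise arachidonic and linoleic acid. Cyp2c50 was at 554 and 561 FPKM (LD-FA), 562 and 422 FPKM (LD-PM2.5), 691 and 456 FPKM (LL-FA), and 628 and 218 FPKM (LL-PM2.5). Cyp2c37 was at 279 and 274 FPKM (LD-FA), 235 and 231 FPKM (LD-PM2.5), 347 and 277 FPKM (LL-FA), and 281 and 98.2 FPKM (LL-PM2.5). In both genes LL-PM2.5 replicate 2 lay below the other 7 libraries, and Cyp2c54 had the same lowest library at 67.5 FPKM against 134 to 230 elsewhere. Cyp2c70, which makes the muricholic acids of mouse bile, was at 419.8 and 365 FPKM (LD-FA), 429 and 285 FPKM (LD-PM2.5), 324 and 275 FPKM (LL-FA), and 299.8 and 393 FPKM (LL-PM2.5). Here LL-PM2.5 replicate 2 was the third highest library. Cyp2c23, an arachidonic acid epoxygenase best known from kidney, was at 137 and 133 FPKM (LD-FA), 149 and 165 FPKM (LD-PM2.5), 169.5 and 127 FPKM (LL-FA), and 193 and 161 FPKM (LL-PM2.5). Cyp2c68 was at 71.03 and 69.4 FPKM (LD-FA), 86.7 and 55.97 FPKM (LD-PM2.5), 83.1 and 70.3 FPKM (LL-FA), and 102 and 82.4 FPKM (LL-PM2.5). Cyp2c67 spanned 109 to 187 FPKM, and neither gene had its lowest value in LL-PM2.5 replicate 2. At the low end Cyp2c38 was at 6.77 and 8.04 FPKM (LD-FA), 12.2 and 6.93 FPKM (LD-PM2.5), 12.4 and 9.81 FPKM (LL-FA), and 18.2 and 5.68 FPKM (LL-PM2.5). Cyp2c55, inducible through CAR and PXR, was at 4.09 and 3.10 FPKM (LD-FA), 5.18 and 2.24 FPKM (LD-PM2.5), 5.67 and 3.04 FPKM (LL-FA), and 5.62 and 7.62 FPKM (LL-PM2.5). Both LL-PM2.5 libraries exceeded both LD-PM2.5 libraries for Cyp2c55, while the Cyp2c38 values of LL-PM2.5 were the extremes of the series. Cyp2c40, Cyp2c69 and Cyp2c39 averaged 1.65, 0.83 and 0.65 FPKM.

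The Cyp2d cluster on chromosome 15 supplied 5 tested genes. Cyp2d26 stood at 548 and 579 FPKM (LD-FA), 493 and 659 FPKM (LD-PM2.5), 521 and 526 FPKM (LL-FA), and 537 and 412 FPKM (LL-PM2.5). Cyp2d10 stood at 399 and 357 FPKM (LD-FA), 310.1 and 429.7 FPKM (LD-PM2.5), 349.8 and 418 FPKM (LL-FA), and 355 and 285 FPKM (LL-PM2.5). Cyp2d40 (chr15:82759833-82764183, minus strand) stood at 93.2 and 65.96 FPKM (LD-FA), 58.3 and 77.7 FPKM (LD-PM2.5), 44.3 and 55.2 FPKM (LL-FA), and 41.3 and 17.6 FPKM (LL-PM2.5). All 4 constant-light libraries of Cyp2d40 were below all 4 light/dark libraries. Cyp2d22 varied least of the 5, from 66.9 to 81.5 FPKM.

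Among the Cyp2a genes, Cyp2a12, which hydroxylates bile acids, stood at 383 and 339.6 FPKM (LD-FA), 353 and 329.6 FPKM (LD-PM2.5), 355 and 332 FPKM (LL-FA), and 369.8 and 268 FPKM (LL-PM2.5). Its highest library was 1.43 times its lowest. Cyp2a5 (chr7:26835305-26843548, plus strand) stood at 222 and 173 FPKM (LD-FA), 164 and 571 FPKM (LD-PM2.5), 253 and 254 FPKM (LL-FA), and 426 and 202 FPKM (LL-PM2.5). One library, LD-PM2.5 replicate 2, was the highest, and its partner was the lowest. Cyp2b10 (chr7:25897620-25926624, plus strand), the classic CAR target, stood at 1.01 and 2.67 FPKM (LD-FA), 0.45 and 3.71 FPKM (LD-PM2.5), 3.90 and 2.04 FPKM (LL-FA), and 2.52 and 2.96 FPKM (LL-PM2.5). All its values were below 4 FPKM, and the LD-PM2.5 libraries differed most.

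The single-gene subfamilies have narrow roles. Cyp2r1, a vitamin D 25-hydroxylase, was at 15.2 and 12.3 FPKM (LD-FA), 15.2 and 7.87 FPKM (LD-PM2.5), 15.3 and 11.5 FPKM (LL-FA), and 17.1 and 12.1 FPKM (LL-PM2.5). Cyp2u1 (chr3:131288441-131303227, minus strand), a long-chain fatty acid hydroxylase, was at 12.3 and 11.97 FPKM (LD-FA), 8.18 and 10.3 FPKM (LD-PM2.5), 10.3 and 9.33 FPKM (LL-FA), and 10.7 and 9.98 FPKM (LL-PM2.5). Both LD-FA libraries were the highest for Cyp2u1. Cyp2g1, of olfactory mucosa, was at 0.33 and 0.34 FPKM (LD-FA), 0.16 and 0.22 FPKM (LD-PM2.5), 0.48 and 0.19 FPKM (LL-FA), and 0.68 and 0.30 FPKM (LL-PM2.5). Cyp2s1, of skin and airway epithelium, was at 0.28 and 0.12 FPKM (LD-FA), 0.086 and 0.14 FPKM (LD-PM2.5), 0.22 and 0.059 FPKM (LL-FA), and 0.12 and 0.17 FPKM (LL-PM2.5). Both stayed below 1 FPKM in every library, and Cyp2w1 had no fragment. Of the Cyp2j genes, which epoxidise fatty acids, Cyp2j5 spanned 215 to 321 FPKM and Cyp2j6 was at 29 and 25.7 FPKM (LD-FA), 28.02 and 18.3 FPKM (LD-PM2.5), 26.5 and 20.1 FPKM (LL-FA), and 24.8 and 19.5 FPKM (LL-PM2.5). Cyp2j9 averaged 1.14 FPKM.

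Beside Cyp3a11, 3 Cyp3a genes were tested. Cyp3a25 was at 229.6 and 159 FPKM (LD-FA), 233 and 218 FPKM (LD-PM2.5), 256 and 164 FPKM (LL-FA), and 345 and 206 FPKM (LL-PM2.5). Cyp3a13 was at 65.4 and 45.4 FPKM (LD-FA), 55.3 and 78.01 FPKM (LD-PM2.5), 53.7 and 42.2 FPKM (LL-FA), and 55.5 and 46.2 FPKM (LL-PM2.5). Cyp3a59 was at 22 and 10.7 FPKM (LD-FA), 19.6 and 18.4 FPKM (LD-PM2.5), 22.3 and 8.73 FPKM (LL-FA), and 27.9 and 16.2 FPKM (LL-PM2.5). For Cyp3a25 and Cyp3a59, as for Cyp3a11, replicate 1 was above replicate 2 in all 4 groups.

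**Figure D2:**
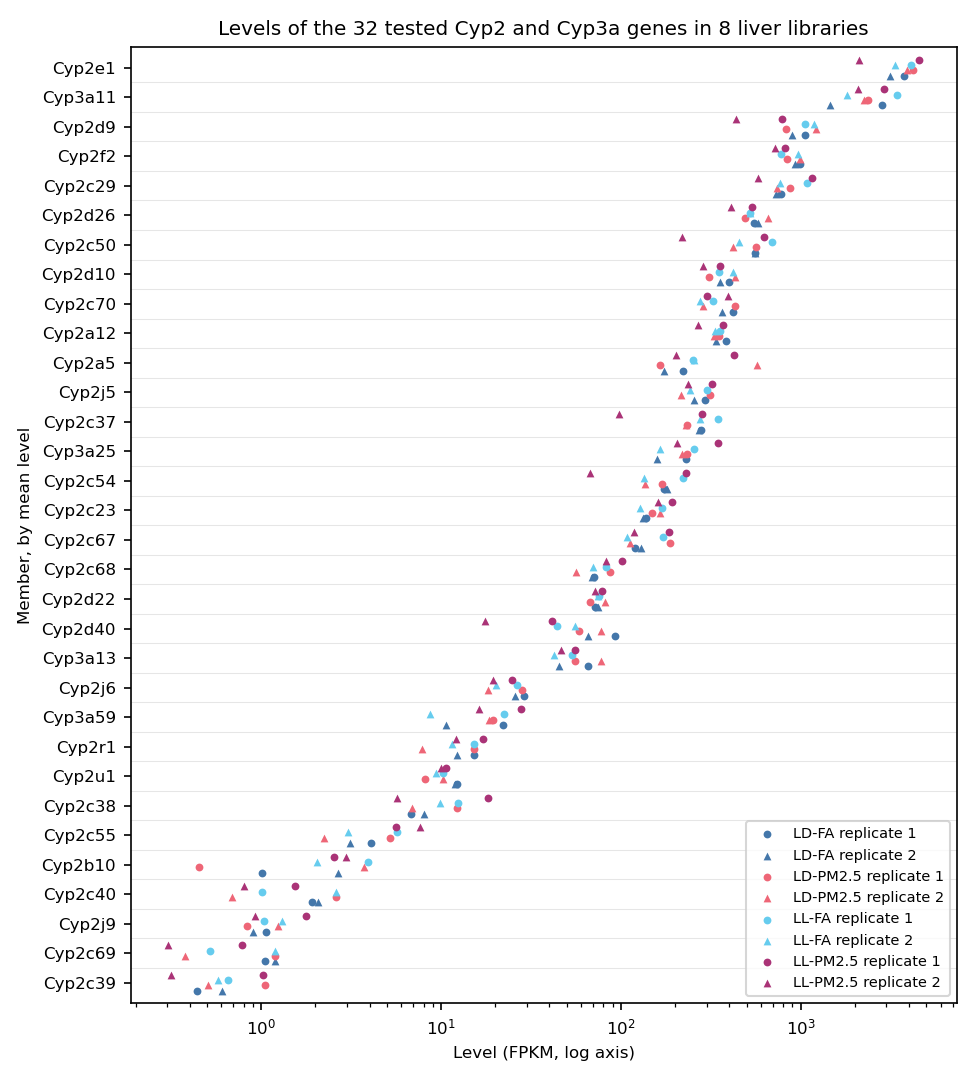
FPKM (x axis, log scale) of the 32 tested members (y axis, ordered by mean) in each of the 8 libraries, coloured by group with circles for replicate 1 and triangles for replicate 2. Levels run from Cyp2e1, with a mean of 3643 FPKM, to Cyp2c39, with a mean of 0.65 FPKM, and LL-PM2.5 replicate 2 lies left of its group in most rows.

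The 26 untested genes were listed at up to 1.38 FPKM, the highest value being that of Cyp2a22 in LL-PM2.5 replicate 1. Among them were members known for higher levels in female liver. Cyp2b9 reached 0.86 FPKM in LL-PM2.5 replicate 1 and at most 0.18 FPKM elsewhere, Cyp3a44 averaged 0.28 FPKM, and Cyp3a16, Cyp3a41a, Cyp3a41b and Cyp2b13 averaged 0.057, 0.024, 0.0031 and 0.0032 FPKM. Members of epithelia outside the liver, such as Cyp2c65 and Cyp2ab1, averaged 0.0090 and 0.011 FPKM, and Cyp2c66, Cyp2b19, Cyp2b23, Cyp2j12, Cyp2j13, Cyp2t4 and Cyp2w1 had no fragment.

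Copies can share reads, and no source used here says how the deposited estimates divided such reads. Over 1653 pairs of the 58 coding sequences, 35 pairs were at least 90% identical, and 30 members, 16 of them tested, had such a neighbour. Values of these 30 are uncertain to that extent. The closest tested pairs were Cyp2c67 and Cyp2c69 at 97.7%, Cyp3a25 and Cyp3a59 at 97.5%, Cyp2c67 and Cyp2c68 at 97.1%, Cyp2c68 and Cyp2c69 at 96.5%, and Cyp2c37 and Cyp2c50 at 96.1%. Cyp3a11 was 95.2% identical to Cyp3a41a, and Cyp2d9 93.3% to Cyp2d11. In 6 tested members no 50-base stretch of their transcripts occurred in another gene. These were Cyp2c23, Cyp2c70, Cyp2f2, Cyp2j9, Cyp2r1 and Cyp3a13. Cyp2d40 had no member neighbour above 57.1% identity, a value in which gaps count against identity. Its coding sequence was 1014 bases long, against 1512 for its nearest member Cyp2d10. The value therefore does not show how alike the part common to both is, and Cyp2d40 values can be uncertain too. It shared 14.5% of its 50-base stretches with another gene, the pseudogene Cyp2d41-ps sharing the most.

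Libraries of a group differed for these genes, most in the PM2.5 groups. In LL-PM2.5, 29 of 32 tested members were higher in replicate 1 than in replicate 2, and 9 differed at least 2-fold, against 5.47% of all tested genes. The median absolute log2 ratio of the members was 0.57 there, against 0.31 over all tested genes. With the sign kept, the median of replicate 1 over replicate 2 was 0.57 for members and 0.16 over all tested genes. LL-PM2.5 replicate 2 was the lowest library for 14 of 32 members and for 24.7% of all tested genes. Its partner, LL-PM2.5 replicate 1, was the highest library for 11 members (15.2% of all tested genes) and the lowest for 0 (6.79%). With 2 libraries a group, these values cannot show which of the 2 departs from the group. In LD-PM2.5, 6 of 32 members differed at least 2-fold between replicates, against 4.79% of all tested genes, and the median absolute log2 ratio was 0.48, against 0.26 over all. In LD-FA 2 members (2.80% of all genes) and in LL-FA 3 members (4.17% of all genes) did so. The largest of all ratios was that of Cyp2b10 in LD-PM2.5, where replicate 2 was higher by 3.05 on the log2 scale.

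Other transcripts also differed in LL-PM2.5 replicate 2. Of 12 pericentral genes outside the 2 families, 11 were lowest in LL-PM2.5 replicate 2, among them Glul (glutamine synthetase) at 159 against 335 to 499 FPKM elsewhere and Cyp1a2 at 148 against 277 to 388 FPKM. Of 11 periportal genes, 5 were highest there (8.89% of all tested genes), among them Arg1 (arginase) at 1269 against 625 to 932 FPKM elsewhere. Another 2, Apoa4 at 25.7 and Pigr at 279 FPKM, were lowest there (24.7% of all tested genes). The periportal member Cyp2f2, at 717 FPKM, was also lowest in that library. Nr1i3, the receptor CAR, was at 17.7 against 26.5 to 50.8 FPKM. Summed pancreas acinar markers (8 of 8 listed) came to 3022 FPKM in LD-FA replicate 1, 287 in LL-PM2.5 replicate 2, 90.01 in LD-PM2.5 replicate 1 and at most 4.5 elsewhere. Summed skeletal muscle markers (6 of 6) came to 423 FPKM in LL-FA replicate 1, 224 and 24.6 in LD-FA, and at most 1.17 elsewhere. Summed adipocyte markers (5 of 5) came to 38.1 FPKM in LL-FA replicate 1 and to 1.94 to 11.5 FPKM elsewhere. LL-FA replicate 1 also held Cyp11a1, Cyp11b1 and Cyp21a1 at 9.11, 5.28 and 14.6 FPKM, against at most 0.047, 0.0099 and 0.67 FPKM elsewhere. Kidney and lung markers summed to at most 0.30 FPKM, and hepatocyte markers to 26968 to 39661 FPKM. The part of these transcripts in the results was not tested. In bulk RNA, fewer cells of a type and less RNA per cell cannot be told apart.

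**Figure D3:**
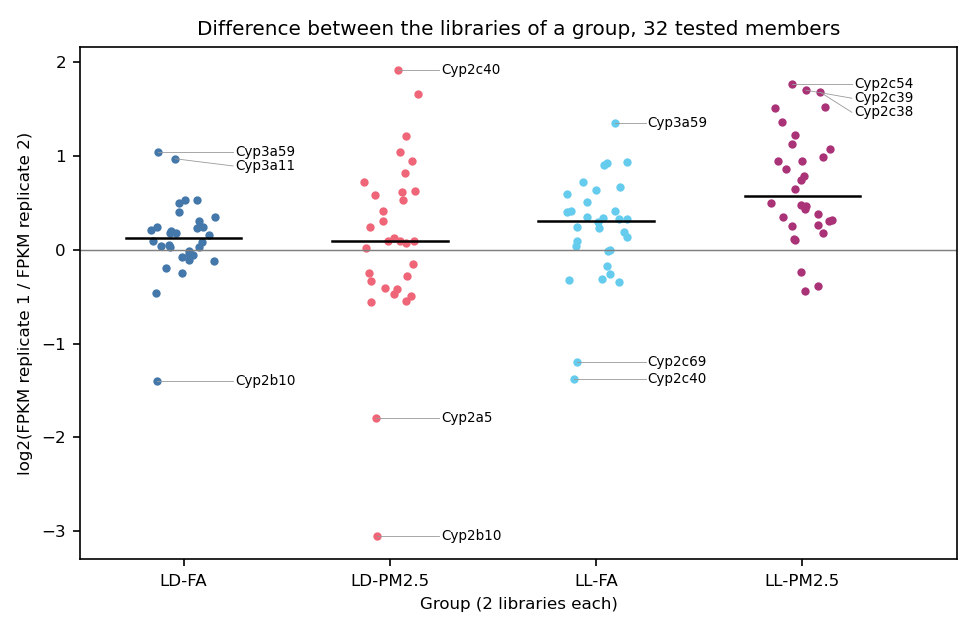
log2 ratio of FPKM in replicate 1 over replicate 2 (y axis) of the 32 tested members in each group (x axis), with black lines at the medians and the 3 largest absolute ratios named. Points of LL-PM2.5 lie mostly above 0, with a median of 0.57, against 0.13 (LD-FA), 0.09 (LD-PM2.5) and 0.31 (LL-FA). Over all tested genes the medians were 0.16 (LL-PM2.5), 0.08 (LD-FA), 0.08 (LD-PM2.5) and 0.08 (LL-FA).

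PM2.5 in the light/dark cycle left no member past the threshold. Cyp2u1 and Cyp2j6 were the lowest against their error, at log2 fold changes of -0.44 ± 0.14 and -0.34 ± 0.13 (SE), and Cyp2a5 had the largest positive value at 0.95 ± 0.56. The edgeR quasi-likelihood test with Benjamini-Hochberg adjustment over all 11316 genes called 0 of 32 members and 0.0% of all genes at 0.05. At an unadjusted p under 0.05 it was 0 higher and 2 lower members, against 11% of all genes. DESeq2 also called 0 members, against 1.33% of all genes. Cyp2u1 had an unadjusted p of 0.015 and an adjusted p of 0.43 in edgeR, and both LD-PM2.5 libraries were below both LD-FA libraries. Cyp2j6 had an adjusted p of 0.44 in edgeR, and its groups overlapped. The Cyp2a5 value was that of 1 library, since without LD-PM2.5 replicate 2 it was -0.34.

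Libraries of LD-PM2.5 lay wholly above those of LD-FA for Cyp2e1 and Cyp2c23 and wholly below for Cyp2c37, Cyp2c54 and Cyp2u1. This is 5 of 32 members, where 43.4% of all tested genes did not overlap. The log2 fold change was 0.23 ± 0.28 for Cyp2e1 and 0.20 ± 0.16 for Cyp2c23. It was -0.39 ± 0.18 for Cyp2r1, 0.17 ± 0.18 for Cyp3a25 and 0.06 ± 0.28 for Cyp3a11. Values of the 32 ran from -0.67 to 0.95, with 15 positive and a median of -0.01, equal to the median of -0.01 over all genes. For 21 members the 95% interval stayed within 2-fold in both directions, so a change above 2-fold lay outside it. For Cyp3a11 the interval was 0.66-fold to 1.63-fold and for Cyp2e1 0.75-fold to 1.84-fold, while for Cyp2b10 it was 0.28-fold to 4.63-fold.

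PM2.5 in constant light gave its lowest values in Cyp2d9, Cyp2c69, Cyp2c37 and Cyp2d40, and again none passed. The edgeR test called 0 of 32 members and 0.0% of all genes. At an unadjusted p under 0.05 it was 0 higher members and 1 lower, against 4.83% of all genes, and DESeq2 called 0 members and 0.513% of all genes. Cyp2d9 averaged 613 FPKM in LL-PM2.5 and 1122 FPKM in LL-FA, a log2 fold change of -0.89 ± 0.30 (edgeR, unadjusted p = 0.021, adjusted p = 0.99). Without LL-PM2.5 replicate 2 the value was -0.54. Cyp2d40 was at -0.75 ± 0.39, and at -0.25 without that library. These 2 genes were the only members of 32 whose libraries did not overlap. Both were lower, against 11.6% of all genes, and 0 were higher, against 9.65% of all genes. Cyp2c37 was at -0.77 ± 0.33, and at -0.31 without LL-PM2.5 replicate 2.

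The largest positive values in that comparison belonged to Cyp2c55 at 0.71 ± 0.36, Cyp3a59 at 0.57 ± 0.34 and Cyp3a25 at 0.40 ± 0.18, with overlapping libraries. Without LL-PM2.5 replicate 2 the Cyp2c55 value was 0.26. The median of the 32 was -0.01, against 0.00 over all genes, with 16 positive. Intervals stayed within 2-fold for 19 members. Cyp3a11 had a log2 fold change of -0.02 ± 0.28, with an interval from 0.63-fold to 1.55-fold.

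**Figure D4:**
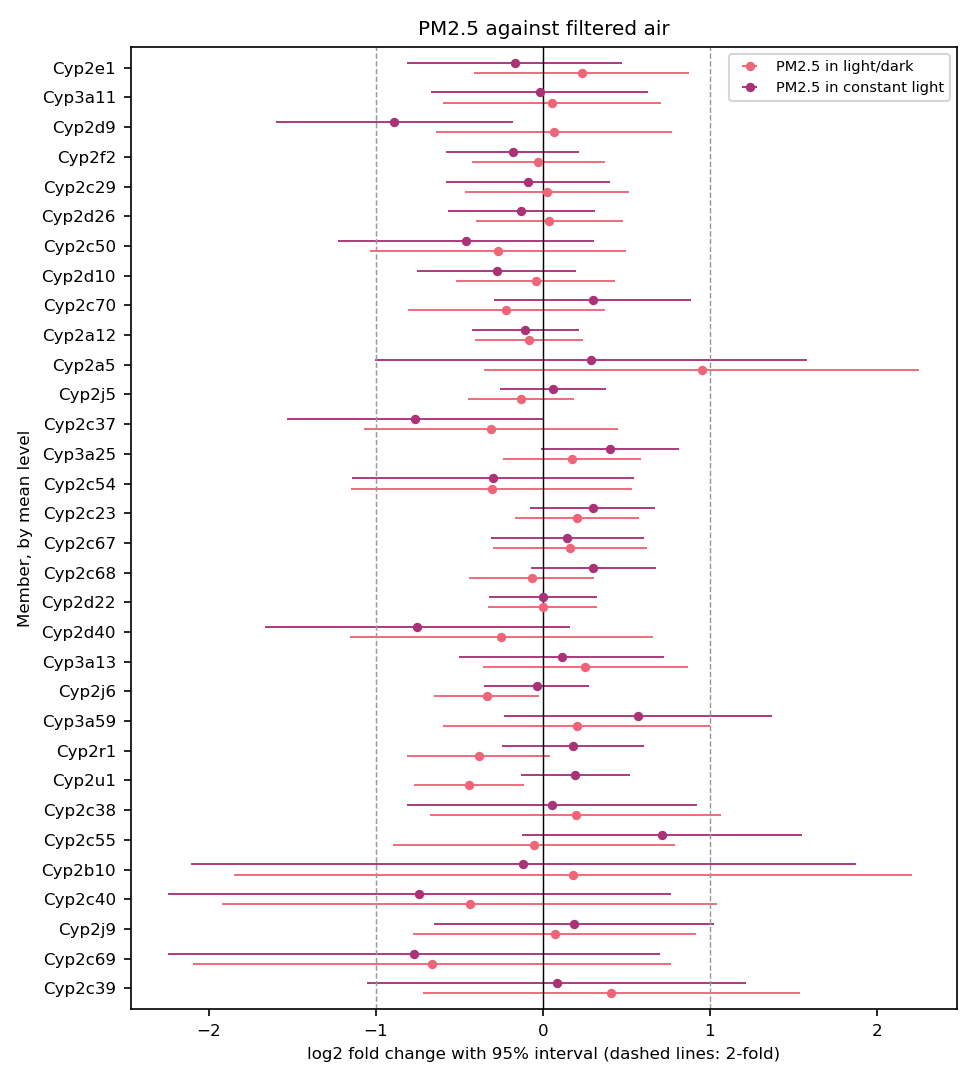
log2 fold change of PM2.5 over filtered air (x axis) with 95% intervals for the 32 tested members (y axis, ordered by mean FPKM) in the light/dark cycle and in constant light. Intervals cross 0 for nearly all members, and Cyp2d9 in constant light, at -0.89, was not past the adjusted threshold.

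Constant light in filtered air moved no member past the threshold either. Cyp2d40 had the lowest value, -0.66 ± 0.39, with Cyp2c70 at -0.45 ± 0.25, Cyp2c69 at -0.38 ± 0.61, Cyp2j6 at -0.30 ± 0.13 and Cyp2u1 at -0.29 ± 0.14. The edgeR test called 0 of 32 members and 0.0% of all genes, 0 members also at an unadjusted p under 0.05 (2.74% of all genes), and DESeq2 called 0 members (0.38% of all genes). Libraries did not overlap for 7 of 32 members, against 21.9% of all genes. Cyp2a5, Cyp2c38 and Cyp2d22 were higher and Cyp2c70, Cyp2d26, Cyp2d40 and Cyp2u1 lower in LL-FA. Cyp2c38 was at 0.45 ± 0.37, Cyp2c29 at 0.22 ± 0.21 and Cyp2b10 at 0.69 ± 0.86. The Cyp2b10 value turned to -0.38 when both replicate 1 libraries of filtered air, which held muscle transcripts, were left out. The median was 0.03 over members and 0.00 over all genes, and 22 intervals stayed within 2-fold.

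Constant light under PM2.5 gave the widest range of values among the 4 pairwise comparisons, -1.16 to 0.95. Cyp2d40 averaged 29.5 FPKM in LL-PM2.5 and 68.0 FPKM in LD-PM2.5, a log2 fold change of -1.16 ± 0.39 (edgeR, unadjusted p = 0.020, adjusted p = 0.50). DESeq2 called it, with an adjusted p of 0.0477, and no other member. The edgeR test called 0 of 32 members and 0.0% of all genes, and DESeq2 called 1.23% of all genes. At an unadjusted p under 0.05, edgeR gave 4 higher and 2 lower members, against 9.23% of all genes. Without LL-PM2.5 replicate 2 the Cyp2d40 value was -0.65, and without LL-PM2.5 replicate 1 it was -1.95.

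The other member at that unadjusted level on the lower side was Cyp2d9 at -0.74 ± 0.30, or -0.38 without LL-PM2.5 replicate 2. On the higher side were Cyp2c55 at 0.95 ± 0.36, Cyp2r1 at 0.44 ± 0.18, Cyp2c68 at 0.43 ± 0.16 and Cyp2u1 at 0.34 ± 0.14, with edgeR adjusted p-values of 0.52 to 0.53. Cyp2c55 went to 0.51 without LL-PM2.5 replicate 2 and to 0.58 without LD-PM2.5 replicate 2. Libraries did not overlap for Cyp2c55 (higher) and for Cyp2d40, Cyp2d9 and Cyp2f2 (lower), 4 of 32 members against 30.7% of all genes. Cyp3a13 was at -0.40 ± 0.26, and at 0.10 without LD-PM2.5 replicate 2. The median was 0.03 over members and 0.01 over all genes, and 19 intervals stayed within 2-fold.

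**Figure D5:**
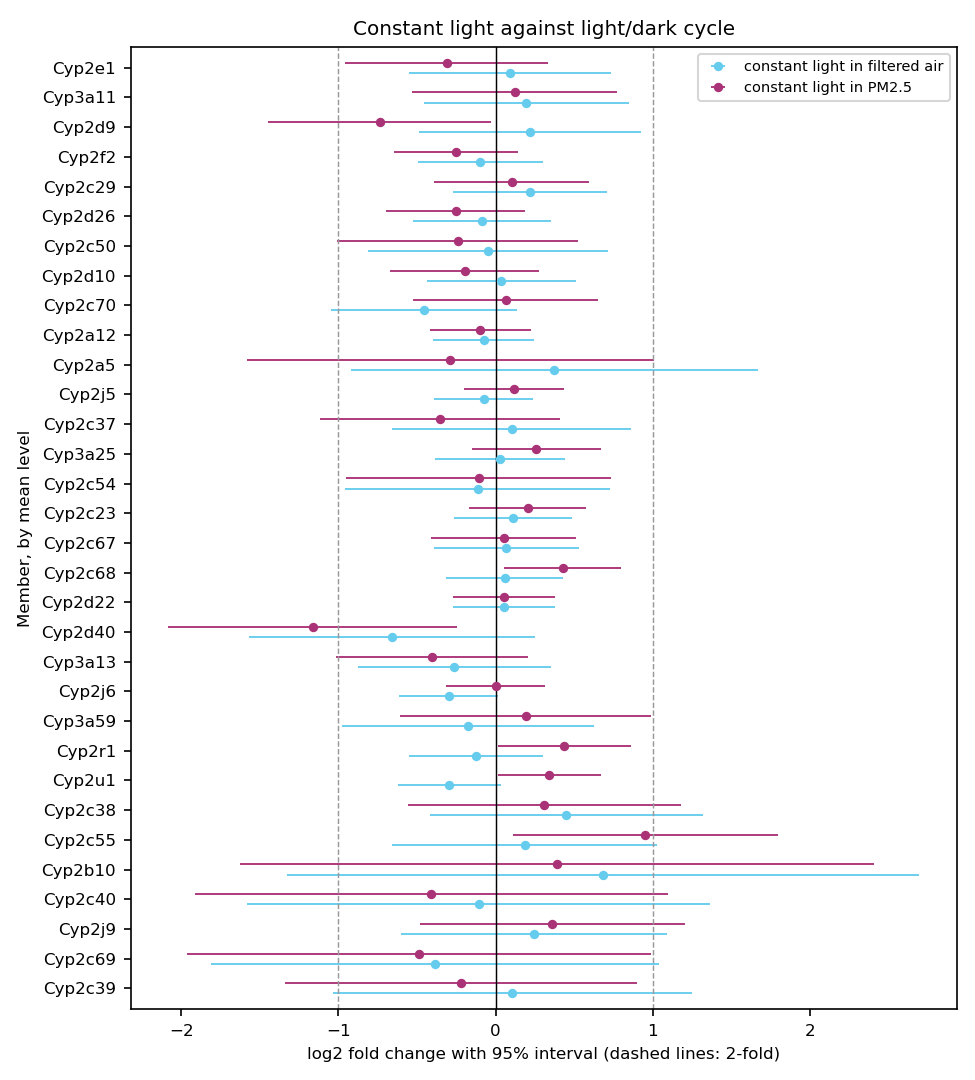
log2 fold change of constant light over the light/dark cycle (x axis) with 95% intervals for the 32 tested members (y axis, ordered by mean FPKM) in filtered air and under PM2.5. Cyp2d40 lies below 0 in both, at -0.66 and -1.16, and the widest intervals belong to members of low level such as Cyp2b10.

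Averaged over both airs, Cyp2d40 had the lowest value for constant light. Its log2 fold change was -0.91 ± 0.28, with an interval of 0.34-fold to 0.83-fold (edgeR, unadjusted p = 0.012, adjusted p = 0.74). It was the only member of 32 whose 4 constant-light libraries were all below the 4 light/dark libraries, as in 1.56% of all genes, and none was wholly above (0.68% of all genes). The edgeR test called 0 of 32 members and 0.0% of all genes, with 1 lower member at an unadjusted p under 0.05 (5.66% of all genes). DESeq2 called Cyp2d40 alone among members, with an adjusted p of 0.0205, and 0.813% of all genes. Without LL-PM2.5 replicate 2 the Cyp2d40 value was -0.65. Cyp2c55 was at 0.57 ± 0.25, Cyp2c68 at 0.24 ± 0.11, Cyp2c38 at 0.38 ± 0.26 and Cyp3a13 at -0.33 ± 0.19. With LL-PM2.5 replicate 2 left out, Cyp2c55 was at 0.35 and Cyp2c38 at 0.62. Intervals stayed within 2-fold for 27 of 32 members.

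Averaged over both lights, PM2.5 gave Cyp2c69 at -0.72 ± 0.44, Cyp2c37 at -0.54 ± 0.23, Cyp2d9 at -0.41 ± 0.21 and Cyp2j6 at -0.19 ± 0.10. These were, with LL-PM2.5 replicate 2 left out, -0.53, -0.31, -0.24 and -0.20. On the other side were Cyp3a25 at 0.29 ± 0.12, Cyp3a59 at 0.39 ± 0.24 and Cyp2c23 at 0.25 ± 0.11. The edgeR test called 0 of 32 members and 0.0177% of all genes, 0 members also at an unadjusted p under 0.05 (10% of all genes), and DESeq2 called 0 members (1.42% of all genes). No member had all 4 PM2.5 libraries above the 4 of filtered air (1.59% of all genes) or below them (1.81%), where 3.4% of all genes did not overlap in either direction. Cyp2e1 was at 0.03 ± 0.19 and Cyp3a11 at 0.02 ± 0.20, with intervals of 0.75-fold to 1.40-fold and 0.74-fold to 1.39-fold. Intervals stayed within 2-fold for 25 members.

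The interaction, the PM2.5 change in constant light minus that in the light/dark cycle, was called for 0 of 32 members and 0.0% of all genes by edgeR. Only Cyp2u1, at 0.64 ± 0.20, had an unadjusted p under 0.05 (4.88% of all genes), with an adjusted p of 0.84 in edgeR. DESeq2 called 0 members and 0.292% of all genes. Cyp2r1 was at 0.56 ± 0.26 and Cyp2c68 at 0.37 ± 0.23. Cyp2d9 was at -0.96 ± 0.43, Cyp2c37 at -0.45 ± 0.46 and Cyp2e1 at -0.40 ± 0.39. Without LL-PM2.5 replicate 2 these 3 interaction values were -0.61, -0.0039 and -0.07, and that of Cyp2u1 was 0.61. Only 13 intervals stayed within 2-fold, so the differences between the 2 PM2.5 effects were the least precise of the comparisons. Comparisons share libraries, and their values are given side by side without a test of likeness.

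Genes that serve or control these enzymes were read from fixed lists. None of their tested members passed in edgeR in any of the 7 comparisons, and limma on log2(FPKM + 1) called none either. Electron and heme supply had 8 tested genes. Alas1, the first enzyme of heme synthesis, was at 42.5 and 49.9 FPKM (LD-FA), 160.0 and 191 FPKM (LD-PM2.5), 70.4 and 164 FPKM (LL-FA), and 62.03 and 30.2 FPKM (LL-PM2.5). Its log2 fold change was 1.93 ± 0.43 under the light/dark cycle for PM2.5 and -1.33 ± 0.42 in constant light, with an interaction of -3.26 ± 0.61 (edgeR, unadjusted p = 8.33e-04, adjusted p = 0.84). DESeq2 called Alas1 in these 3 comparisons and for constant light in filtered air and under PM2.5. In the same order it called 1.33%, 0.513%, 0.292%, 0.38% and 1.23% of all genes. Por, the reductase, was at 58.4 and 43.6 FPKM (LD-FA), 67.1 and 189 FPKM (LD-PM2.5), 69.3 and 92.99 FPKM (LL-FA), and 105 and 109.6 FPKM (LL-PM2.5), with a PM2.5 value of 1.36 ± 0.40 under the light/dark cycle. DESeq2 called Por in that comparison (1.33% of all genes) and for PM2.5 over both lights (1.42% of all genes). At an unadjusted p under 0.05 the list had 2 higher and 0 lower genes for PM2.5 under the light/dark cycle (11% of all genes), with a median of 0.13.

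The receptor and factor list had 15 tested of 17 genes. Hnf4a, the gene of the factor HNF4A, was not among the genes with an accepted estimate, so no level of it is given. Nr1i3 was at 26.5 and 33.7 FPKM (LD-FA), 32.4 and 50.8 FPKM (LD-PM2.5), 38.3 and 34.7 FPKM (LL-FA), and 45.6 and 17.7 FPKM (LL-PM2.5). Nr1i2, the receptor PXR, was at 15.1 and 15.7 FPKM (LD-FA), 16.6 and 23.1 FPKM (LD-PM2.5), 20.2 and 22.4 FPKM (LL-FA), and 22.9 and 18.4 FPKM (LL-PM2.5). Dbp, which binds D-boxes, was at 2.77 and 2.05 FPKM (LD-FA), 9.12 and 12.99 FPKM (LD-PM2.5), 3.86 and 9.08 FPKM (LL-FA), and 32.9 and 54.04 FPKM (LL-PM2.5). Both PM2.5 groups were above their filtered-air groups for Dbp, at log2 fold changes of 2.21 ± 0.39 and 2.82 ± 0.38. Over both lights it was 2.51 ± 0.27, with an adjusted p of 0.067 in edgeR and a call in DESeq2. Over both lights 12 of the 15 genes were positive, 4 higher and 1 lower at an unadjusted p under 0.05 (10% of all genes), with a median of 0.23. Cux2, a factor of female liver, was at or below 0.062 FPKM.

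Of the conjugation enzymes and transporters known as CAR or PXR targets, 14 of 15 were tested. For constant light under PM2.5, 3 were higher and 0 lower at an unadjusted p under 0.05 (9.23% of all genes). The median was 0.06, and 0.22 without LL-PM2.5 replicate 2, when 2 were higher. They were Slco1a4 (an organic anion carrier) at 1.52 ± 0.40, Gsta2 (a glutathione transferase) at 1.05 ± 0.32 and Gsta1 at 1.10 ± 0.42, and DESeq2 called Slco1a4 and Gsta2 (1.23% of all genes called). For PM2.5 under the light/dark cycle the list had 0 higher and 1 lower (11% of all genes), Gstm2 at -0.67 ± 0.27, and DESeq2 called none. Aldh1a1 (retinal dehydrogenase) was at 374 FPKM in LL-PM2.5 replicate 2, against 837 to 1197 FPKM elsewhere.

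Of 41 P450 genes of other families, 22 were tested. Cyp8b1, which makes cholic acid, was at 332 and 289.7 FPKM (LD-FA), 152 and 131 FPKM (LD-PM2.5), 225 and 301 FPKM (LL-FA), and 162 and 99.9 FPKM (LL-PM2.5). PM2.5 values were -1.13 ± 0.24 in the light/dark cycle and -1.02 ± 0.24 in constant light. Over both it was -1.08 ± 0.17 (edgeR, adjusted p = 0.31, called by DESeq2 as were 1.42% of all genes). Cyp26a1, which degrades retinoic acid, was at 7.53 and 9.08 FPKM (LD-FA), 7.05 and 11.6 FPKM (LD-PM2.5), 36.6 and 36.4 FPKM (LL-FA), and 40 and 20.6 FPKM (LL-PM2.5). Constant light over both airs gave 1.94 ± 0.23 (edgeR, adjusted p = 0.15, called by DESeq2 as were 0.813% of all genes). Over both airs 15 of the 22 were positive, 5 higher and 0 lower at an unadjusted p under 0.05 (5.66% of all genes). The median was 0.12, and 0.05 without LL-PM2.5 replicate 2, when 7 were higher. Cyp1a1 and Cyp1b1, targets of the aryl hydrocarbon receptor, stood at 0.16 to 0.53 and 0.12 to 0.30 FPKM and were not tested.

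Lists of lobule position and of sex bias gave the following. For constant light under PM2.5, 11 of 12 pericentral genes were negative, 0 higher and 3 lower at an unadjusted p under 0.05 (9.23% of all genes), with a median of -0.46, and DESeq2 called none. For 11 of these 12 genes LL-PM2.5 replicate 2 was the lowest of the 8 libraries, and without it 10 were negative, 1 was lower at that level and the median was -0.11. The 3 lower genes were Slc13a3 at -0.76 ± 0.23, Rhbg at -0.72 ± 0.22 and Gulo at -0.46 ± 0.15. Of 11 periportal genes, 3 were higher and 1 lower in that comparison. Sds was at 1.60 ± 0.40 and Hal at 0.73 ± 0.14, both called by DESeq2 (1.23% of all genes). The periportal median was 0.09, and -0.13 without LL-PM2.5 replicate 2. None of 8 tested male-biased genes was positive for PM2.5 in constant light, 4 were lower at an unadjusted p under 0.05 (4.83% of all genes) and the median was -0.46. Leaving out LL-PM2.5 replicate 2, 2 were positive, 3 were lower and the median was -0.51. Elovl3 (a fatty acid elongase) was at -1.47 ± 0.34 and Selenbp2 at -1.52 ± 0.44, both called by DESeq2 (0.513% of all genes), beside the -0.89 ± 0.30 of Cyp2d9. Of 10 female-biased genes 3 were tested. All 3 were positive for PM2.5 in constant light, 2 higher and 0 lower at an unadjusted p under 0.05, with a median of 1.17, and without LL-PM2.5 replicate 2 all 3 were positive and 1 was higher. Abcd2 (a peroxisomal transporter) was at 2.07 ± 0.48 and called by DESeq2 (0.513% of all genes), and Acot3 (an acyl-CoA thioesterase) was at 1.17 ± 0.42. Xist was at most 0.0014 FPKM.

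Acute phase genes, whose rise in inflammation is known to go with lower hepatic P450 transcripts, were negative for constant light in 18 of 18 tested genes over both airs. At an unadjusted p under 0.05 there were 0 higher and 14 lower (5.66% of all genes), with a median of -0.73, and DESeq2 called 9 (0.813% of all genes). There were also 14 lower without LL-PM2.5 replicate 2. Orm2 was at -2.44 ± 0.32 and Saa1 at -5.10 ± 0.67, with adjusted p-values of 0.15 and 0.15 in edgeR. The summed level of the 18 genes was 13229 to 22870 FPKM in the light/dark libraries and 9893 to 11254 FPKM in constant light. Of the 32 P450 members, 16 were positive in the same comparison, with a median of -0.02. A relation between acute phase genes and P450 members was not tested.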

How the data were processed

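Liver RNA was sequenced in 8 libraries, 2 for each of 4 groups. Per the submitters' processing notes, STAR, Cufflinks and Cuffdiff were used with the mouse build mm10, with versions not given in the sources used here. Per the file headers, the deposited table has an estimated count of fragments and an FPKM value for each gene and library, both made by the authors, and 0 of its libraries lacked a label. Estimated counts were rounded, and 97.4% of the nonzero ones were already whole to within 0.01. The 47 genes with a status other than OK (172 entries HIDATA, 21 FAIL) were left out. Gene IDs were named with GENCODE vM21.

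The filter kept genes that reached 1 FPKM in 2 or more libraries, and the test was that of edgeR 4.0.16 (TMM, quasi-likelihood, all 4 groups in 1 fit, Benjamini-Hochberg over 11316 genes, R 4.3.3). Errors are standard errors and 95% intervals used 7.46 degrees of freedom. DESeq2 1.42.0 and limma 3.58.1 on log2(FPKM + 1) or log2(FPKM + 0.1) were alternatives, with other filters and scalings, each library left out in turn, and a replicate block. List counts without LL-PM2.5 replicate 2 were added after seeing the data. Library depth was 22214720 to 31819109 fragments, and the 2 libraries a group limit the precision.

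The members and lists were chosen with earlier results of these data known. Members named with all values were the 10 of highest mean FPKM, those of the single-gene subfamilies Cyp2e1, Cyp2f2, Cyp2g1, Cyp2r1, Cyp2s1, Cyp2u1 and Cyp2w1, and for each comparison up to 3 of smallest unadjusted p in each direction with a mean of at least 1 FPKM. List genes were named by the same smallest-p rule, and a few others singled out in the text, such as Aldh1a1, Arg1, Glul and Cyp1a1, were chosen after their values were seen. Near-identical copies were to be found by protein identity, and coding identity of at least 90% with shared 50-base stretches was used in its place, since a protein table was not used here. ATAC-seq data were not analysed here.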

Additional observations from a re-analysis of the deposited data

How the results depend on the processing

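No member was called in edgeR in any of the 7 comparisons, and 116 of 123 counts under the alternatives were also 0. With no filter on low values 1 member (Cyp2a5) was among 647 genes called for PM2.5 under the light/dark cycle. For PM2.5 in constant light 2 (Cyp2c37, Cyp2d9) were among 476, and for constant light under PM2.5 3 (Cyp2c55, Cyp2d40, Cyp2d9) among 358. For PM2.5 over both lights 2 (Cyp2a5, Cyp2c37) were among 696, and for constant light over both airs 1 (Cyp2d40) among 291. The number of genes in that fit is not given here, so these counts have no share of all genes beside them. DESeq2 gave 1 (Cyp2d40) for constant light under PM2.5 (1.23% of all genes) and 1 for constant light over both airs (0.813% of all genes). The cause was not tested. Leaving out each library in turn gave counts from 0 to 0 in all 56 fits, and a replicate block gave 0 in each comparison. Correlations of same-numbered deviations between groups ran from -0.59 to 0.33. With 2 libraries a group, these values cannot decide whether replicate numbers pair the libraries. In every group most members were higher in replicate 1, from 20 of 32 (LD-PM2.5) to 29 of 32 (LL-PM2.5). The cause of this lean was not tested. Of 737 values of 42 named results, 734 kept their direction. The reversed values were Cyp2a5 at -0.34 under PM2.5 with the light/dark cycle and Cyp3a13 at 0.10 for constant light under PM2.5, both without LD-PM2.5 replicate 2, and Cyp2b10 at -0.38 for constant light in filtered air when replicate 1 of LD-FA and of LL-FA were left out. Leaving out 1 library each gave ranges of -0.34 to 1.61 for that Cyp2a5 value, 0.15 to 1.60 for Cyp2b10 and -0.77 to 0.10 for Cyp3a13. Over all genes edgeR called 0, 0, 0, 0, 2, 0 and 0 in PM2.5 in the light/dark cycle, constant light in filtered air, PM2.5 in constant light, constant light under PM2.5, PM2.5 over both lights, constant light over both airs and the interaction, against 647, 201, 476, 358, 696, 291 and 239 with no filter and 151, 43, 58, 139, 161, 92 and 33 with DESeq2. Without LD-PM2.5 replicate 1 it called 36 genes in PM2.5 under the light/dark cycle, and without LL-PM2.5 replicate 1 it called 10 for PM2.5 in constant light. With 2 libraries a group, only 13 to 27 of 32 intervals excluded a 2-fold change.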
